A study of Mus musculus with 12 samples.

Results

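N6-methyladenosine (m6A) is a methyl mark on adenosines within mRNA, and YTHDF2 is a protein that binds marked transcripts and recruits enzymes that shorten and degrade them. The regions described here are m6A peaks that lie in a gene with at least 1 YTHDF2 peak and yet share no base with any YTHDF2 peak of that gene. They were chosen from the measured positions of both peak lists of wild-type (WT) macrophages, by gene symbol and by start and end. Of 10290 m6A peaks, 3073 met this rule (29.9%, 95% Wilson interval 29.0 to 30.8), and they lay in 1907 genes. Another 4120 m6A peaks, in 2721 genes, overlapped a YTHDF2 peak of their gene, and 3097 lay in 1804 genes that the YTHDF2 list does not hold.

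The study measured macrophages grown from bone marrow of C57BL/6 mice, either WT or with a conditional knockout of Ythdf2 (cKO). Cells of both genotypes received 20 ng/ml M-CSF, a growth factor for macrophages, over 7 days, and then 100 ng/ml LPS with 20 ng/ml IFN-γ for 24 h, a stimulus that gives inflammatory (M1-type) cells. The 12 libraries formed 6 groups of 2: m6A immunoprecipitates and inputs of WT and of cKO, and a YTHDF2 immunoprecipitate and its input from WT. The promoter that drives Cre is not given in the labels used here. The labels do not say whether the 2 replicates came from separate mice or cultures, so p-values may measure technical spread alone. Each peak list is 1 list for WT as a group, the expression table gives 1 comparison of the inputs, and 0 of the 3 files hold a value per library. The depth of the libraries is therefore unknown. All 15 macrophage marker genes were in the expression table, with mean normalized counts from 2119 to 204979 in the authors' deposited table. There, markers of T and NK cells reached 249, of dendritic cells 30.1, of erythroid cells 50.7, of mast cells 10.3, of stroma 580, of B cells 3745 and of neutrophils 8496. Each of these is the highest gene of its list, which for neutrophils was Csf3r. The list medians were 98.2 for stroma, 15.7 for B cells and 23.7 for neutrophils, against 29752 for macrophages.

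In most tissues m6A concentrates near the stop codon and in the 3′ UTR, and YTHDF2 is known for binding there. Methylation also occurs in long internal exons and next to the cap, where a separate enzyme methylates the first transcribed adenosine in the modified form called m6Am, which common m6A antibodies also recognise. An m6A peak and a YTHDF2 peak of a gene can thus lie in different parts of it. A fact of the files bears on every comparison below: all 17843 distinct peaks of the YTHDF2 list carry names that begin with "m6a_peak". From which libraries that list was called was not tested.

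One subset of the apart peaks covered an annotated transcript start, and sequences of its starts are shown first. Of the 54 genes with an apart peak that were called in the input comparison, 5 belong to this subset and 49 do not. Of the 2493 apart peaks whose gene had a start in the RefSeq promoter table, 103 covered one (4.13%, 95% Wilson interval 3.42 to 4.99). The share was 0.822% (27 of 3286) among overlapping peaks and 2.73% (52 of 1907) among peaks of genes without a YTHDF2 peak. The lines below give the first 30 bases of the transcript for 5 genes that were called in the input comparison and for 4 other macrophage genes. They were read from RefSeq (GRCm38.p6, the same coordinates as mm10), run 5′ to 3′ on the transcript's strand, and were chosen after their values were seen. Capitals mark the first transcribed base and, where present, GGAC, the most common core of the m6A consensus.
Lyz2, chr10:117282243-117282272, minus strand: Agccagcagctgacccagcctccagtcacc
Tmsb4x, chrX:167209189-167209218, minus strand: Atcacctcatttgcatagaagcacacataa
Saa3, chr7:46715647-46715676, minus strand: Tggggtcccagaaggagctcgcagcacgag
Rab3il1, chr19:10018194-10018223, plus strand: Gggcaggggaagggctccggtggggcggag
Emilin2, chr17:71310982-71311011, minus strand: GggcggcacccggggGGACctgtgcgtcat
Ifitm3, chr7:141010715-141010744, minus strand: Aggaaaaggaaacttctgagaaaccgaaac
Grn, chr11:102430507-102430536, plus strand: AgatgcctcccagggagcccGGACcccgac
Slc11a1, chr1:74375203-74375232, plus strand: GtgggttcccactcttactcactcGGACca
Stat6, chr10:127642986-127643015, plus strand: Gagaagccggaaacagcaggccggggcagc

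The 9 starts differ in their first base, and 3 of them hold GGAC within the window shown. Over all 108 starts that an apart peak covered, the first base was A in 36.1% (39) and G in 42.6% (46). Among all 32851 starts of the table the shares were 34.4% and 35.6%, and among the 1984 starts of all genes with an apart peak they were 28.0% and 47.1%. GGAC occurred within the first 50 bases in 20.4% of the 108 starts on the transcript's strand and in 18.5% on the other strand. The shares over the whole table were 18.9% and 17.4%. Letters in a window are a description and not a measured site.

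Peaks on a start lay far from YTHDF2 peaks. Their median span was 296 bp. Of the 103, 16 spanned at most 100 bp, and that of Cd200r4 spanned 9058 bp. All but 1 (102 of 103) lay before every YTHDF2 peak of the gene. Their median gap was 11363 bp (55 to 228947 bp). The nearest YTHDF2 summit lay in coding sequence for 48, in an intron for 29, in the 3′ UTR for 25 and in the 5′ UTR for 1. In Lyz2, which encodes the lysozyme of macrophages, the only m6A peak (66 bp, chromosome 10, 117282256 to 117282321) crossed the start of the gene, and the only YTHDF2 peak lay 3986 bp away with its summit in the 3′ UTR. Most of that m6A peak lay before the first transcribed base at 117282272. The bases shown for Lyz2 run to 117282243, so those beyond 117282256 lie outside it. In Stat6, a transcription factor of IL-4 signalling, the peak spanned 50 bp from the first base onward and its gap was 7805 bp. Ifitm3, an interferon-induced membrane protein that blocks virus entry, had a 75 bp peak over its start and a gap of 689 bp. Slc11a1, a metal transporter of phagosomes, had a gap of 9991 bp, and Grn, which encodes the lysosomal protein progranulin, a gap of 2271 bp. The starts shown for Tmsb4x, Saa3 and Rab3il1 are internal ones of a longer RefSeq gene, as the maps of peaks along 8 genes show for Tmsb4x and Saa3.

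**Figure D1:**
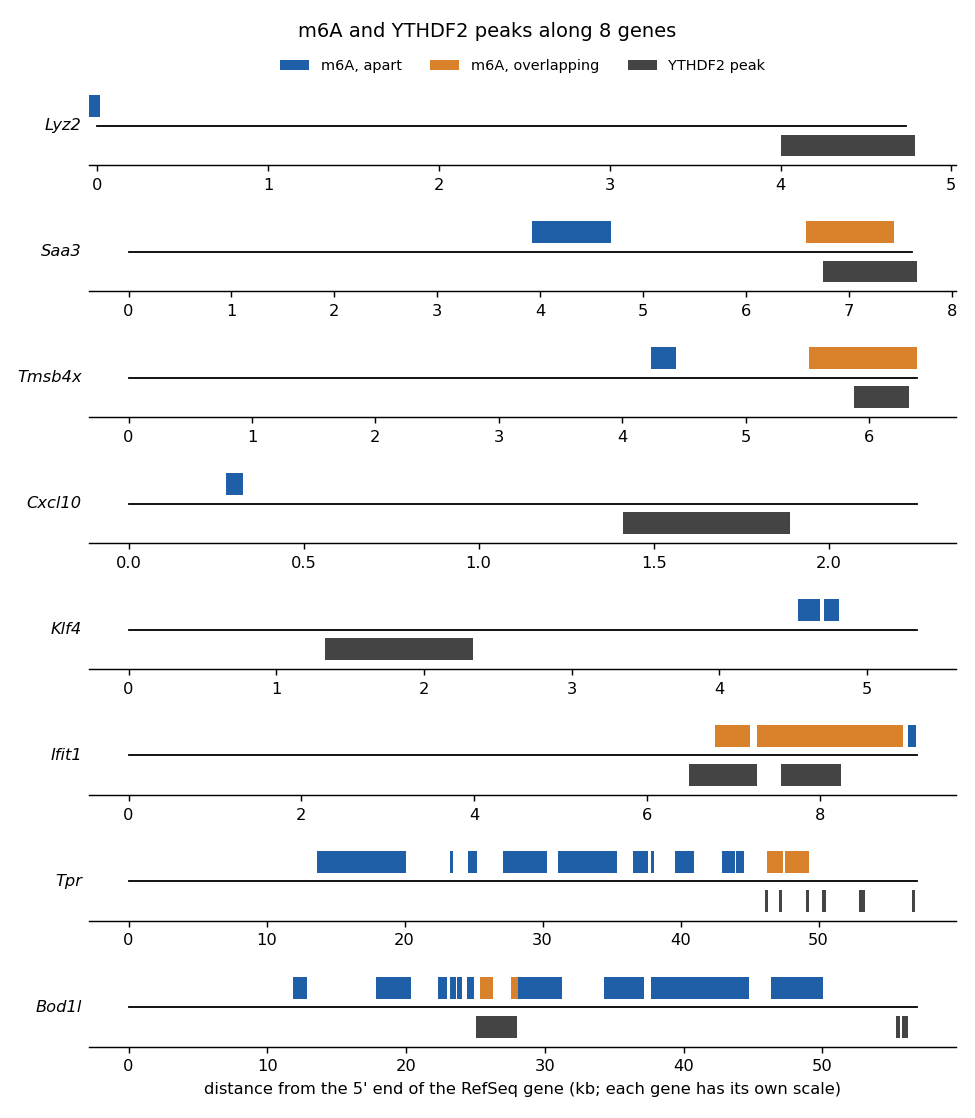
Peaks along 8 genes, drawn as distance from the 5′ end of the RefSeq gene in kb, with a scale per gene; m6A peaks lie above the gene line (apart in blue, overlapping in orange) and YTHDF2 peaks below it in grey. The apart peak of Lyz2 sits on the gene's 5′ end, those of Klf4 and Ifit1 lie after the last YTHDF2 peak, and the 11 of Tpr lie before the first.

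Apart peaks had more short and more long spans than overlapping peaks. The median span was 250 bp for apart peaks, 400 bp for overlapping peaks and 275 bp for peaks of genes without a YTHDF2 peak. Spans of at most 100 bp made up 30.4% of the apart peaks (934 of 3073), against 15.0% and 25.4% in the other classes. Spans over 1000 bp made up 25.3%, against 21.9% and 22.4%, and the 95th percentiles were 6355 bp for apart and 4300 bp for overlapping peaks. Coordinates are genomic, so a wide span or a gap can include introns. A peak's span enters the rule through the overlap, so these spans are a description with no test.

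The distance to the nearest YTHDF2 peak of the same gene ranged from 0 to 332157 bp. The median gap was 2127 bp, with 5th, 25th, 75th and 95th percentiles of 32, 335, 12413 and 53206 bp. A gap of at most 100 bp was found for 429 peaks (14.0%), of at most 1000 bp for 1218 (39.6%) and of over 10000 bp for 862 (28.1%). RNA of the m6A libraries had been cut into fragments of about 100 nucleotides, so the gaps of the 429 closest peaks were within about 1 such fragment. No fragment length is given for the YTHDF2 libraries, so how finely their peaks are placed is unknown. Within 10 bp of the edge of the rule lay 45 apart and 43 overlapping peaks. Chd1 (a chromatin remodeller), Flrt2 (an adhesion protein), Abhd4 (a lipase) and Srsf4 (a splicing factor) each held 1 apart peak that abutted a YTHDF2 peak with a gap of 0 bp. Those of Clcn7, Dag1 and Klhl5 that shared a single base with a YTHDF2 peak counted as overlapping.

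Most apart peaks lay on the 5′ side. Of the 3073, 2072 (67.4%, 65.7 to 69.1) were upstream of their nearest YTHDF2 peak and 1001 (32.6%) downstream. Seen against all YTHDF2 peaks of the gene, 1741 (56.7%) came before the first, 750 (24.4%) between 2 of them and 582 (18.9%) after the last. The sides also differed in distance: the median gap was 4758 bp upstream and 375 bp downstream, and 5.94% of upstream peaks but 30.6% of downstream peaks lay within 100 bp. In the 985 genes that held both apart and overlapping m6A peaks, the median centre of the apart peaks was upstream of that of the overlapping peaks in 679 (68.9%).

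**Figure D2:**
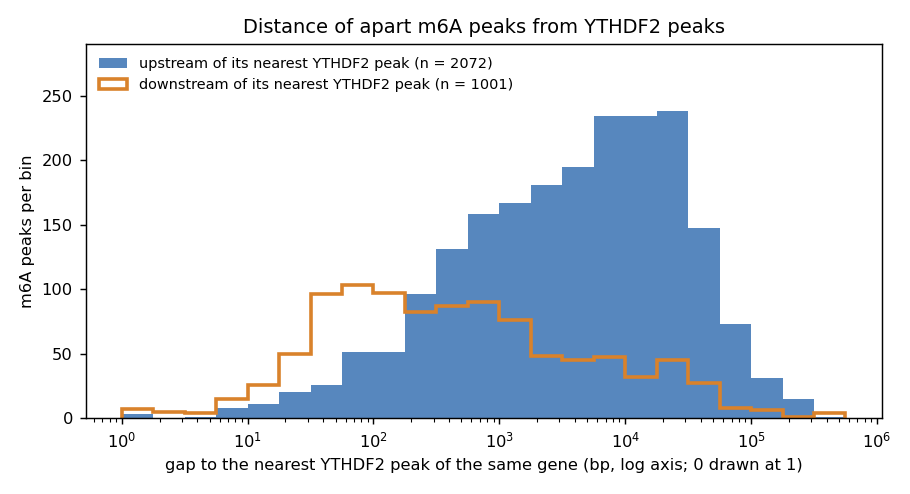
Number of apart m6A peaks by gap to the nearest YTHDF2 peak of the gene (bp, log axis, 0 drawn at 1), upstream in filled blue and downstream as an orange line. Upstream peaks (2072) have a median gap of 4758 bp and reach their highest bins near 10000 bp, and downstream peaks (1001) have a median of 375 bp.

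Along the gene, apart peaks were spread more widely than overlapping ones. An apart peak could be placed on the RefSeq gene of its symbol in 2961 cases. Of these, 314 (10.6%, 9.55 to 11.8) had their centre in the first 10% of the gene's length and 816 (27.6%, 26.0 to 29.2) in the last 10%. Overlapping peaks had 3.19% in the first 10% and 49.2% in the last, and peaks of genes without a YTHDF2 peak 7.45% and 36.6%. The median distance from the centre to the 3′ end of the gene was 8620 bp for apart, 2562 bp for overlapping and 2823 bp for the remaining peaks. Of the summits in the YTHDF2 list, 36.6% lay in a 3′ UTR. The rule keeps apart peaks away from YTHDF2 peaks, so these positions are a description of what it selected.

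**Figure D3:**
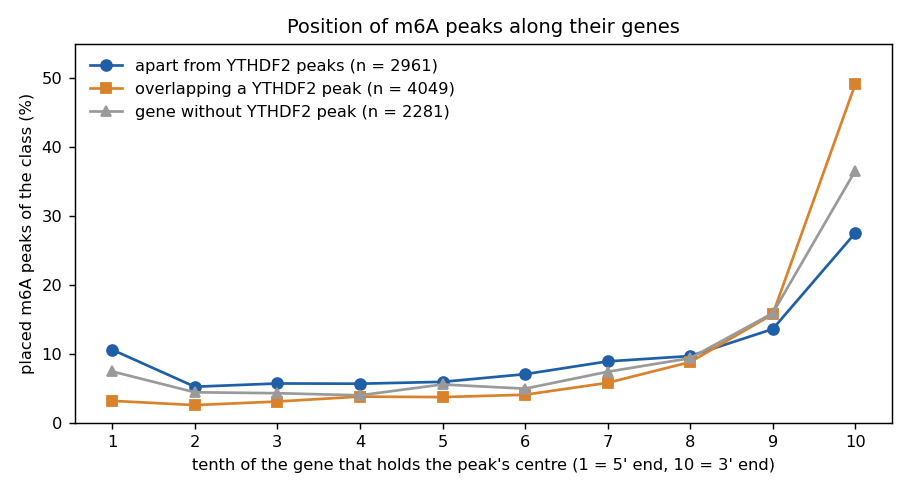
Percentage of placed m6A peaks of each class whose centre fell in each of 10 equal parts of the gene, from the 5′ end (1) to the 3′ end (10). Apart peaks (blue, 2961) stand at 10.6% in the first and 27.6% in the last, overlapping peaks (orange, 4049) at 3.19% and 49.2%.

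The YTHDF2 list names the transcript features that its own peaks touch, and 854 apart peaks had their centre in such a feature. The 3′ UTR held 431 of them (14.0% of all apart peaks), at a median gap of 109 bp, and coding sequence held 338 (11%), at 197.5 bp. Introns held 81 and the 5′ UTR 4. The centres of the other 2219 (72.2%) lay in no listed feature, and their median gap was 5931 bp. So did those of 348 overlapping peaks (8.45%), and the 2219 include apart peaks outside the RefSeq gene of their symbol. Apart peaks in a touched 3′ UTR were upstream of the YTHDF2 peak in 37.1% of cases, and those in no listed feature in 76.9%.

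The nearest YTHDF2 summit lay in coding sequence for 1352 apart peaks (44.0%), in the 3′ UTR for 1096 (35.7%), in an intron for 518 (16.9%) and in the 5′ UTR for 39. Where that summit was in the 3′ UTR, 78.7% of the apart peaks lay upstream of it. Where it was in the 5′ UTR, 15.4% did. The fold enrichment of YTHDF2 peaks, which is the authors' own value, had a median of 2.77 over the peaks nearest to an apart peak (1.39 to 12.8) and of 3.01 over the whole list.

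Of the 1907 genes, 922 held apart peaks only and 985 held overlapping peaks as well. Another 1736 genes held overlapping peaks only. YTHDF2 peaks numbered a median of 1 per gene in the first group, 3 in the second and 2 in the last. The summits lay in the 3′ UTR for 45.4% of the YTHDF2 peaks of genes with apart peaks only, against 31.8% and 37.2%. The median fold enrichment was 2.90, 2.84 and 2.91 in the 3 groups. The 5 genes with apart peaks only and the highest YTHDF2 fold enrichment were H2-Q10 (12.8), Calcoco1 (12.3), Unc5a (12.1), Zfp420 (8.35) and Usp36 (8.27). Calcoco1, a coactivator and autophagy receptor, held 4 apart m6A peaks of 50 to 1462 bp. Of these, 2 flanked a YTHDF2 peak at gaps of 31 and 48 bp, and a 50 bp peak lay 2404 bp from the edge of the YTHDF2 peak with the 12.3-fold enrichment, whose summit was in an intron. H2-Q10, a non-classical MHC class I gene, had a 75 bp m6A peak 1724 bp before a coding YTHDF2 peak, and its RNA was below the counts tested in the input comparison.

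Most genes held a single apart peak (1216), 419 held 2 and 272 held 3 or more. Bod1l, a replication-fork protein, had 12 on chromosome 5, from 41794324 to 41832530. Of these, 6 lay between a YTHDF2 peak over coding sequence and those near the 3′ end, at gaps of 82 to 10754 bp. The other 6 lay before all YTHDF2 peaks, at 83 to 12171 bp. Tpr, a nuclear pore basket protein, had 11, all before its first YTHDF2 peak at gaps of 1503 to 25977 bp. Naip6, a NLR sensor of bacterial proteins, had 10 (638 to 34204 bp), and Ubap2l, an RNA-binding protein of stress granules, had 7 (15685 to 42688 bp). Both had no overlapping m6A peak, and all their peaks came before every YTHDF2 peak. Gm1966 had 9, all after its only YTHDF2 peak. Phf3 had 8 and Cep170 had 7. None of these 7 genes was called in the comparison of WT and cKO inputs: in the authors' deposited table, their log2 fold changes ran from -0.01 for Tpr to 0.51 for Gm1966 (adjusted p = 0.0771 by DESeq2).

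Parp10, an interferon-induced ADP-ribosyltransferase, was listed with 8 apart peaks that did not lie in that gene. They lay at 76171299 to 76189367 on chromosome 15, at least 43628 bp beyond the RefSeq gene and inside Plec, the gene of a cytoskeletal linker (76170974 to 76231378). All 8 lay under YTHDF2 peaks that the YTHDF2 list gives to Plec, a symbol under which the m6A list holds 0 peaks. The paralogs Apol9a and Apol9b, members of the apolipoprotein L family that interferon induces, showed a similar exchange. The m6A peak listed for Apol9a (77403789 to 77404263) lay under the YTHDF2 peak listed for Apol9b (77403937 to 77404694), and 3 m6A peaks of Apol9b lay under the YTHDF2 peak of Apol9a (77735376 to 77736327). Their gaps of 330792 to 331117 bp were among the largest of all. In RefSeq, Apol9a spans 77403789 to 77411080 and Apol9b spans 77729047 to 77736382. The m6A peaks thus carry the RefSeq symbol of their locus, and the YTHDF2 peaks carry the symbol of the other paralog. These gaps therefore span the distance between the paralogs and are not distances within a gene. Reads of such near-identical genes can be assigned to either copy, so the values of both genes are uncertain. The cause of the exchange was not tested. The largest gap, 332157 bp, belonged to Fars2, a mitochondrial aminoacyl-tRNA synthetase whose peak and YTHDF2 peak both lay within its own RefSeq gene of 420168 bp.

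Over all apart peaks, 69 (2.25%) in 48 genes lay under a YTHDF2 peak that was listed for another gene. Of these, 21 were placed on the gene of their symbol. The other 48 belonged to the 112 that were not, of which 91 lay wholly inside another RefSeq gene. The interferon-induced GTPases Igtp and Gbp4 were among them: 1 of the peaks listed for Igtp lay under a YTHDF2 peak of Irgm2, and 2 of those listed for Gbp4 under YTHDF2 peaks of Gbp8 and Gbp9. For 3004 apart peaks no YTHDF2 peak of any gene lay at the position. This check was added after the data were seen. Taking out the 69 leaves 102 peaks on a start, and, of the 17 pathway lists, moves the counts in 3: pattern recognition (9 genes, 19 peaks), the m6A machinery (13 peaks) and cytokine receptors (8 peaks).

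The comparison of WT and cKO input RNA used neither peak list, so it is a measure the rule did not use. It is not fully separate, because the WT m6A inputs also belong to the libraries taken to stand behind the m6A list. The sources used here do not say which genotype is the numerator. Ythdf2 itself, which has 2 m6A peaks and 0 YTHDF2 peaks and is therefore not among these genes, stood at 1.10 ± 0.16 (log2 fold change ± SE) in the authors' deposited table (DESeq2, adjusted p = 2.06e-09). Positive values are called the side of Ythdf2 below, and negative values the opposite side. Of all 10778 tested genes, 2.32% were called at an adjusted p under 0.05, 1.76% positive and 0.557% negative.

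Genes with an apart peak were called about as often as tested genes in general. Of the 1907 genes, 1881 were in the table and 1858 had an adjusted p. Of those, 43 were called positive (2.31%) and 11 negative (0.592%), together 54 or 2.91% (95% Wilson interval 2.23 to 3.77). That interval includes the 2.32% over all tested genes. Without the 69 peaks that lay under a YTHDF2 peak of another gene, 41 were positive and 11 negative. The median log2 fold change was 0.03, against -0.01 over all tested genes. Genes with an apart peak were also more abundant: their median mean normalized count in the authors' deposited table was 1707, against 739 over all tested genes, and calls are more frequent at high counts. Among the most abundant 25% of tested genes, 4.53% of the genes with an apart peak (39 of 860) were called, against 4.82% of all. In the next 25% the shares were 1.49% and 2.08%, in the 25% below that 1.77% and 1.86%, and in the least abundant 25% 0 of 53 (DESeq2; 2 at an unadjusted p under 0.05) and 0.519%.

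The share called differed between kinds of gene. With all apart peaks kept, the counting intervals given here overlapped, by a narrow margin for the first 2 kinds. Of genes with apart peaks only, 1.80% were called (16 of 888, 1.11 to 2.91), and of genes with both kinds 3.92% (38 of 970, 2.87 to 5.33). The shares were 3.41% for genes with overlapping peaks only (57 of 1671) and 2.80% for genes with m6A but no YTHDF2 peak (38 of 1359). The median mean count was 1349 for genes with apart peaks only and 2113 for genes with both, so abundance differed between these groups too. By the smallest gap of a gene's apart peaks, the share was 4.90% at 0 to 100 bp (20 of 408, 3.20 to 7.45). It was 2.87% at 101 to 1000 bp (16 of 557), 2.16% at 1001 to 10000 bp (11 of 510) and 1.83% beyond that (7 of 383, 0.888 to 3.72). Median mean counts in these 4 bins ran from 1586 to 1911. The highest mean counts were 1665000, 291453, 861849 and 34712, from the closest bin to the farthest. What part abundance had in these shares was not tested. Without the 69 peaks under a YTHDF2 peak of another gene, 1.59% of genes with apart peaks only (14 of 879) and 3.95% of genes with both (38 of 963) were called. The 4 gap bins then had 20 of 408, 16 of 553, 11 of 504 and 5 of 377. No intervals are given for these counts, so the overlap stated above holds only with the 69 peaks kept. Neither difference was tested, and the intervals cover counting error only.

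**Figure D4:**
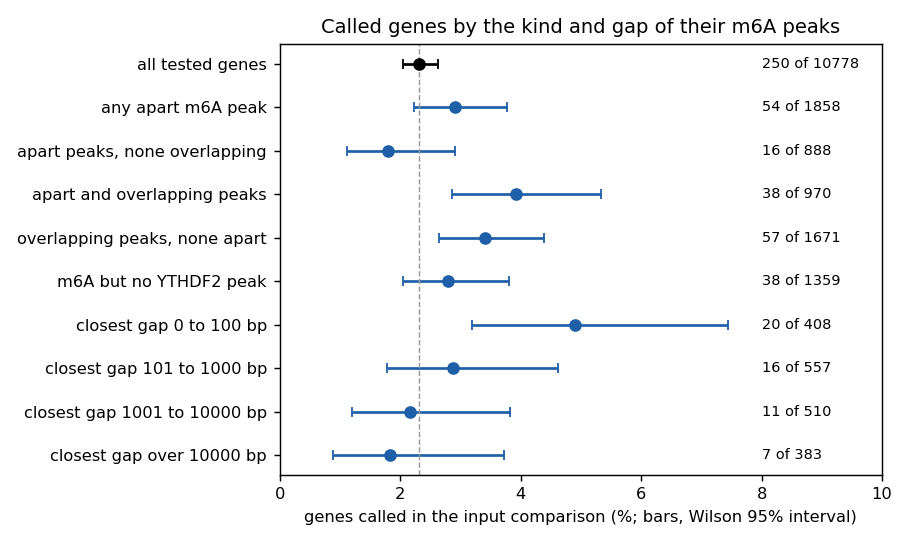
Percentage of tested genes called at an adjusted p under 0.05 in the input comparison, with Wilson 95% intervals as bars and the counts at the right; the dashed line marks the 2.32% over all tested genes. Genes with apart peaks only lie at 1.80%, and genes whose closest apart peak is within 100 bp at 4.90%.

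On the side of Ythdf2, Clec4e, the C-type lectin Mincle that senses mycobacterial glycolipids, stood at 0.74 ± 0.15 (log2 fold change ± SE) in the authors' deposited table (DESeq2, adjusted p = 0.000147). Its only m6A peak, 100 bp in the 3′ UTR (chromosome 6, 123282439 to 123282538), lay 776 bp after the end of a YTHDF2 peak with its summit in coding sequence. Cxcl10, a chemokine that attracts T cells through CXCR3, stood at 0.55 ± 0.13 (adjusted p = 0.00276 by DESeq2) in the authors' deposited table. It carried a single 50 bp m6A peak near its 5′ end (chromosome 5, 92348563 to 92348612), 1084 bp before its only YTHDF2 peak in the 3′ UTR. Ifit1 and Oasl1, antiviral effectors of the interferon response, stood at 0.56 ± 0.10 and 0.58 ± 0.13 in the authors' deposited table (by DESeq2, adjusted p = 3.46e-05 and 0.000618). Both also had m6A peaks that overlapped a YTHDF2 peak, 2 in Ifit1 and 3 in Oasl1, and their apart peaks lay 775 bp after and 3549 bp before the nearest YTHDF2 peak.

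The largest positive values came with apart peaks at gaps from 1 to 191955 bp. Phlpp1, a phosphatase of AKT, stood at 0.79 ± 0.18 (adjusted p = 0.00162 by DESeq2) in the authors' deposited table, and its 500 bp peak in coding sequence lay 171 bp from a YTHDF2 peak. Plxna2, a semaphorin receptor, stood at 0.74 ± 0.17 in the authors' deposited table (by DESeq2, adjusted p = 0.00181), and its apart peak lay near the 5′ end, 191955 bp from the YTHDF2 peak in the 3′ UTR. Cd300lf, an inhibitory receptor of myeloid cells, had 0.74 ± 0.14 in the authors' deposited table (by DESeq2, adjusted p = 7.55e-05) and an apart peak 7271 bp before the first YTHDF2 peak. In Nes, an intermediate filament gene, the gap was 1 bp, and in Tnfsf10, the death ligand TRAIL, 77 bp. For Mill2, an MHC class I-like gene, and Pcdh7, a protocadherin, the gaps were 4425 and 296 bp. These last 4 genes had log2 fold changes of 0.64 to 0.76 in the authors' deposited table, with adjusted p from 0.0201 to 0.0492 (DESeq2).

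On the opposite side, Lyz2 had the largest change of any gene with an apart peak that was called, -1.49 ± 0.33 (SE, adjusted p = 0.00133 by DESeq2) with a mean count of 204979 in the authors' deposited table. The promoter that drives Cre is not given, so whether the Cre allele itself changes Lyz2 RNA was not tested. Tmsb4x, an actin-binding thymosin, stood at -0.52 ± 0.15 in the authors' deposited table (by DESeq2, adjusted p = 0.0212), and Saa3, an acute-phase protein, at -0.49 ± 0.12 (adjusted p = 0.00655). Rab3il1, an exchange factor for a vesicle GTPase, had -0.61 ± 0.14 and Emilin2, a matrix glycoprotein, -0.38 ± 0.11 in the authors' deposited table (by DESeq2, adjusted p = 0.0016 and 0.0327). These are the 5 called genes whose apart peak covered a transcript start, and all 5 were negative. The peaks on these starts spanned 66 bp in Lyz2, 200 in Tmsb4x, 422 in Emilin2, 767 in Saa3 and 3007 in Rab3il1. A covered start thus does not mean a peak confined to it. Of 102 tested genes with an apart peak on a start, 4.90% were called (2.11 to 11), and 0 were positive by DESeq2, which allows a share of up to 2.94%. Over all tested genes 2.32% were called, 1.76% positive and 0.557% negative. The interval thus includes the overall share called, and the limit lies above the overall positive share. The negative share was 4.90% against 0.557%. At an unadjusted p under 0.05, 9 of the 102 passed, 3 of them positive.

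This subset was singled out after its values were seen. It was also abundant, with a median mean count of 3368, and 3 of the 5 had a mean count above 100000 in the authors' deposited table. Below that level 2 of 99 genes were called (2.02%). Over all tested genes above it, 7 of 22 were called, 4 positive and 3 negative, and those 3 were Lyz2, Tmsb4x and Saa3. Where a start was covered by a peak of a gene without YTHDF2 peak, 3 of 46 genes were called and all 3 were positive, and where it was covered by an overlapping peak, 1 of 27 was called, negative. What part abundance had in these counts was not tested.

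Of the other 6 negative genes, 4 carried their apart peak in the 3′ UTR beside a YTHDF2 peak. Camk1d (a calcium-dependent kinase), Slc12a7 (a potassium-chloride cotransporter), Tifab (an inhibitor of TRAF6 signalling) and Pygl (glycogen phosphorylase) had gaps of 79, 33, 33 and 44 bp. Their log2 fold changes in the authors' deposited table ran from -0.68 ± 0.19 for Camk1d to -0.49 ± 0.14 for Tifab, with adjusted p from 0.0126 to 0.0264 (DESeq2). The second apart peak of Rab3il1 lay 30 bp from a YTHDF2 peak. Over all tested genes with an apart peak, 408 of 1858 (22.0%) had one within 100 bp of a YTHDF2 peak, and of these 14 were called positive and 6 negative. When p-values were adjusted over all genes, with no filter on low counts, 22 of the 54 calls were lost. Among the genes described by name, these were Mill2, Nes, Pcdh7, Tmsb4x, Tifab, Emilin2, Apol9b, Cflar, Csf1, Klf4 and Traf1. The genes called with an apart peak on a transcript start then numbered 3 (Lyz2, Saa3 and Rab3il1).

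**Figure D5:**
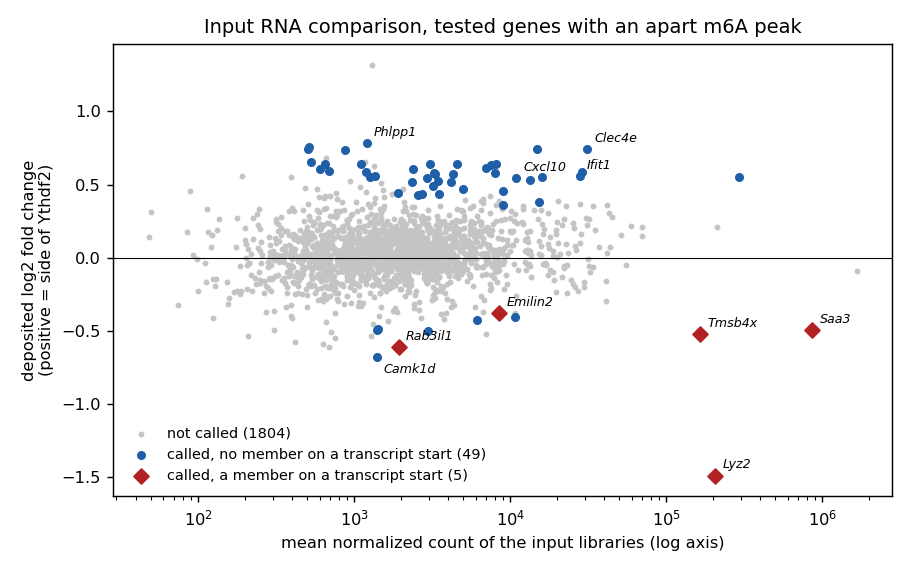
Deposited log2 fold change of input RNA against mean normalized count (log axis) for the 1858 tested genes with an apart m6A peak; grey points were not called, blue points were called and red diamonds were called and have an apart peak on a transcript start. The 5 diamonds lie below 0, and 43 of the 49 blue points lie above it.

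Gene lists for macrophage functions were read for how many of their members carried an apart peak. Over all genes, 1858 of the 10778 tested genes carried one, as did 1907 of the 5447 genes in the m6A list. No list was tested against these shares. In the type I interferon list, 13 of 32 genes did, with 18 peaks, and 2 of the 13 were called positive (Ifit1 and Oasl1). Over the whole list 8 of 32 were, so 6 of the 8 had no apart peak. The median log2 fold change of the 13 was 0.23, the same as over the 32, in the authors' deposited table. The other 11 ran from -0.01 for Ifitm3 to 0.34 for Mx2, a dynamin-like antiviral GTPase with 2 apart peaks and no overlapping peak (adjusted p = 0.19 by DESeq2). For JAK-STAT and interferon signalling, 12 of 37 genes carried 15 apart peaks, and 0 were called by DESeq2, with 0 at an unadjusted p under 0.05. Those with apart peaks only included Stat3, Jak2 and Irf7, at 0.11, 0.16 and 0.15 in the authors' deposited table. The whole list also had 0 calls among 34 tested genes. Of the NF-kB and TNF list, 11 of 36 genes carried 17 apart peaks, with Traf1, an adaptor of TNF receptors, called positive at 0.47 ± 0.14 in the authors' deposited table (by DESeq2, adjusted p = 0.0371). It was the only call among the 35 tested genes of that list. Its apart peak was 50 bp long and lay 164 bp after the 3′ UTR peak of YTHDF2.

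Pattern recognition receptors carried 20 apart peaks in 10 of 27 genes, among them Tlr7 with 4 and Tlr3, Tlr4 and Nlrc5 with 3 each. DESeq2 called 0 of the 10, and 2 had an unadjusted p under 0.05. It also called 0 of the 26 tested genes of the whole list. Of cytokines and chemokines, 4 of 35 carried apart peaks (Ccl3, Ccl9, Csf1 and Cxcl10). Csf1, the growth factor M-CSF, was called positive beside Cxcl10, at 0.61 ± 0.18 in the authors' deposited table (by DESeq2, adjusted p = 0.0339), with a 50 bp apart peak 5960 bp before its 3′ UTR YTHDF2 peak. Over the whole list, 4 of 29 tested genes were called positive. Of the 29 cytokine receptors 7 did, and Ccrl2, an atypical receptor for chemerin, was called positive at 0.64 ± 0.12 in the authors' deposited table (by DESeq2, adjusted p = 3.98e-05). Klf4, a zinc finger transcription factor of monocyte differentiation, was the called gene among 8 of 35 macrophage transcription factors, at 0.59 ± 0.17 in the authors' deposited table (by DESeq2, adjusted p = 0.0299). Over the whole lists, 2 of 26 tested receptors and 2 of 33 tested transcription factors were called positive. Both m6A peaks of Klf4 were apart, 2202 and 2377 bp after a coding YTHDF2 peak. Cflar, the caspase-8 inhibitor c-FLIP, was called among 3 of 31 apoptosis genes, at 0.38 ± 0.11 in the authors' deposited table (by DESeq2, adjusted p = 0.0374), and held 3 apart and 4 overlapping m6A peaks. It was the only call among the 31 apoptosis genes.

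Among the 17 pathway lists, which differ in size, those of chromatin regulators and giant scaffold proteins held the most apart peaks. Of 52 chromatin regulators, 23 held 72 apart peaks, among them Atrx, a remodeller of heterochromatin, with 6, and Ash1l, Asxl2, Chd1, Chd9, Ncor1 and Setd1b with 5 each. Of 34 giant scaffold proteins, 15 held 49, with Lyst, the gene of lysosome trafficking, at 6 beside Bod1l at 12. Overlapping peaks were found in more genes of both lists, in 30 chromatin regulators and 20 giant scaffold proteins. DESeq2 called 0 genes with an apart peak in both lists, with 1 in each at an unadjusted p under 0.05, and their median log2 fold changes in the authors' deposited table were 0.06 and 0.07. Over both whole lists, 1 of 52 tested chromatin regulators was called, positive, and 0 of 32 tested scaffold proteins. Within these lists the balance varied from gene to gene. Spen, a repressor of transcription, had 1 apart and 12 overlapping peaks, and Ahnak, a giant membrane scaffold, had 2 and 18, whereas all 5 peaks of Asxl2 were apart. Of the m6A machinery, 7 of 23 genes carried apart peaks. All 3 peaks of Ythdf1, a paralog of Ythdf2, were apart, and Zc3h13, a subunit of the writer complex, had 3 apart and 3 overlapping. DESeq2 called 0 of the 7 (1 at an unadjusted p under 0.05), with a median of 0.04 in the authors' deposited table, and 1 of the 21 tested genes of that list. Factors of mRNA decay carried 8 apart peaks in 7 of 29 genes, and 0 of the 7 were called by DESeq2 (1 at an unadjusted p under 0.05). Of the 29 tested decay genes, 1 was called. Apart peaks were found in 9 of 29 genes of the MAP kinase cascade, 5 of 28 for antigen presentation, 6 of 34 for lysosome and phagocytosis, 4 of 36 ribosomal protein genes and 4 of 36 for glycolysis and oxidative phosphorylation. DESeq2 called 0 of these 28 genes, and 5 had an unadjusted p under 0.05, among them all 4 ribosomal protein genes. Over whole lists, it called 1 positive and 1 negative of 27 tested antigen presentation genes. For lysosome and phagocytosis the counts were 1 and 2 of 34, and for ribosomal proteins 0 and 2 of 35. The MAP kinase and glycolysis lists had 0. With 2.32% called over all tested genes, 0 calls in lists this small are no result about apart peaks. The 4 ribosomal protein genes had a median of -0.31 in the authors' deposited table, the same as over the whole ribosomal list. Of the marker lists, 6 of 15 macrophage markers carried apart peaks, with 1 called (Lyz2), as did 1 of 13 neutrophil and 1 of 8 B cell markers, and 0 of the 5 others.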

How the data were processed

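The deposited files were 2 peak lists of the WT group and a table comparing the m6A input libraries of both genotypes. Peak members, gene lists and tests were chosen with earlier results of these data known. HISAT2, HOMER, ChIPseeker and mm10 are named in the submitters' processing notes without a role, the m6A list names exomePeak2 per the labels, and for the YTHDF2 list the caller was not given in the sources used here.

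Per the file headers, the authors' table has DESeq2's column names: a mean normalized count (a signal averaged over libraries), a log2 fold change with its SE (log2), a Wald statistic (a score) and p-values with adjusted p-values. In the YTHDF2 list the authors deposited a fold enrichment (a ratio), −log10 p and −log10 q, and a score, in the usual narrow-peak order. The design foresaw counts, so a count test was planned. With no counts, the calls are the authors' own (adjusted p under 0.05), and genes under a mean count of 48.0 have no adjusted p.

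Repeated YTHDF2 rows were dropped. An overlap was 1 shared bp, and an m6A peak was placed when within 1000 bp of the RefSeq gene of its symbol, with Python 3.11.15, pandas 2.3.3 and SciPy 1.17.1. Intervals are Wilson 95% intervals, which cover counting error only, and peaks are not replicates. Genes were named by count of apart peaks (8), by the highest and lowest called log2 fold changes (8 each, mean count at least 100), by list, by gap and by YTHDF2 fold. Other peak widths, thresholds, overlaps, symbol matches, placements, adjustments and centrings were tried. The classification and adjustment steps were tested on simulated data. Peaks of the cKO libraries were not analysed here.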

Additional observations from a re-analysis of the deposited data

How the results depend on the processing

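Of 70 alternative values, 22 moved past a set tolerance, which was 1.5 times for a count and the 95% interval of the reported value for a share or a median gap. The number of apart peaks ranged from 2297 (m6A span of at most 1000 bp) to 4530 (overlap counted from 50% of the m6A span, with 76 called genes, 61 of them positive). In the 50% setting, the median gap and the upstream share were read only over peaks with no shared base. They were therefore fixed in advance at 2127 bp and 67.4%, and they count among the values that did not move. Widening YTHDF2 peaks by 100 bp gave a median gap of 3793 bp, 73.7% upstream and 6 negative called genes. Keeping the upper 50% of YTHDF2 peaks by fold enrichment gave 3674 bp, 65.7%, and 35 called genes, 4 of them negative. Spans of at most 1000 bp gave 1319 bp and 62.2%. Taking the 5′ edge of each peak put 13.6% in the first 10% of the gene, and the 3′ edge put 9.39% there and 29.7% in the last 10%. Adjusting p over all genes without the filter on low counts gave 32 called genes (25 positive, 7 negative; 180 over all genes), and a minimum of 1.5-fold gave 21 (18 and 3; 145 over all genes). Centring on the most abundant 25% of genes moved values by 0.04 on the log2 scale and gave 28 positive calls. Over all genes it gave 146 positive and 75 negative, against 190 and 60. Genes whose m6A peaks were all apart gave 16 (13 and 3). Of 25 genes named by the rule and called, 10 lost the call without the filter (Apol9b, Cflar, Csf1, Klf4, Mill2, Nes, Pcdh7, Tifab, Tmsb4x and Traf1) and 7 of the same with centring. The causes were not tested. No paired analysis was possible because the files hold no value per library, and leaving out a replicate was not run for the same reason. Depth is unknown, so what it limits cannot be given.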
